A study of Homo sapiens with 8 samples.

Results

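786-O is an established human renal carcinoma cell line, and its unmanipulated transcript profile was read here from the mock channel of 2 of the 8 two-colour Agilent oligo microarrays of a study of miRNA transfection and of a small-molecule inhibitor, bisamide, in urological cancer lines. Members were chosen by the labels alone: all arrays whose Cy3 RNA was labelled as 786-O with no transfection. The comparison groups were the Cy3 RNAs of PC3 (prostate cancer, 3 arrays), C4-2 (prostate cancer, 1 array) and T24 (bladder cancer, 2 arrays), also labelled as mock with no transfection. On each array the Cy5 channel held RNA of the same line after miR-532-5p or miR-532-3p (786-O), miR-140-5p or miR-140-3p (T24), miR-199-3p (C4-2), or miR-125b-1-3p or bisamide at either of 2 times (PC3). The labels name a pair of culture media without saying which line received which, so line and medium cannot be told apart. Each line is a single culture-adapted tumour isolate, so differences between 786-O and the other lines are differences between lines and not between tumour types.

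In most clear cell renal carcinomas, and in 786-O, the von Hippel-Lindau gene VHL is inactivated. The VHL protein is the substrate-recognition part of a ubiquitin ligase that marks the oxygen-regulated subunits of the hypoxia-inducible factors (HIF-1α, encoded by HIF1A, and HIF-2α, encoded by EPAS1) for degradation. Without it, the factors persist in oxygenated cells, pair with ARNT and act on promoters and enhancers that carry a short core motif. 786-O is known as a line that makes HIF-2α and no HIF-1α protein.

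Levels below are log2 normalized Cy3 intensities, and a difference is the 786-O level minus the mean of the PC3, C4-2 and T24 line means. The dimmest signals well above background lay between 5.73 and 5.91 on the 8 arrays, so a level near these values says only that the gene was at background. The arrays read bulk RNA, in which fewer expressing cells and less RNA per cell cannot be told apart. The 2 786-O arrays carried 16153 and 15725 of 43317 genes well above background, against 15816 to 19331 on the other arrays, and 15206 genes were well above background on both. The labels do not say whether arrays shared a mock RNA. The sample numbers in the deposited names give both 786-O arrays the same mock RNA and both T24 arrays another, and the 8 arrays were taken on that reading to hold 6 mock RNAs. Over 12749 genes above background on all arrays, these pairs of arrays differed with an SD of 0.0662 to 0.0870 and no gene differed by 1 or more, whereas the 3 PC3 RNAs differed with an SD of 0.153 to 0.227 and 12 to 46 genes. Between lines the SD was 0.612 to 0.856, and 992 to 2354 genes differed by 1 or more. Both pairs were therefore averaged and counted once. On this reading the 786-O RNA is a single sample whose own spread could not be measured. The p-values assume that it varied like the PC3 RNAs, which may themselves be technical repeats. The PC3 RNAs were also mock partners of a transfection and of bisamide at 2 times, so their spread may hold differences between experiments.

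Of 20467 genes tested, 877 were called higher in 786-O than the mean of the other lines (4.28%) and 514 lower (2.51%), by limma at an adjusted p under 0.05 and a difference of 1 or more in size. The requirement of such a gap to each of the 3 other lines left 341 genes higher (1.67%) and 78 lower (0.381%). The balance of the directions depended on the scaling. With quantile normalization 63.0% of the called genes were higher in 786-O, whereas with each array scaled to its 75th percentile 477 genes were higher and 840 lower, which is 36.2% higher. The raw 786-O signals reached a 99th percentile of 2337 and 2366, below the 3014 to 5821 of the other arrays, and the part of this in the balance was not tested. Of the 341 genes higher than in each line, 48 were above background on none of the 6 other arrays and 138 on all of them. Of the 78 genes lower than in each line, 31 were above background on neither 786-O array and 45 on both.

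**Figure D1:**
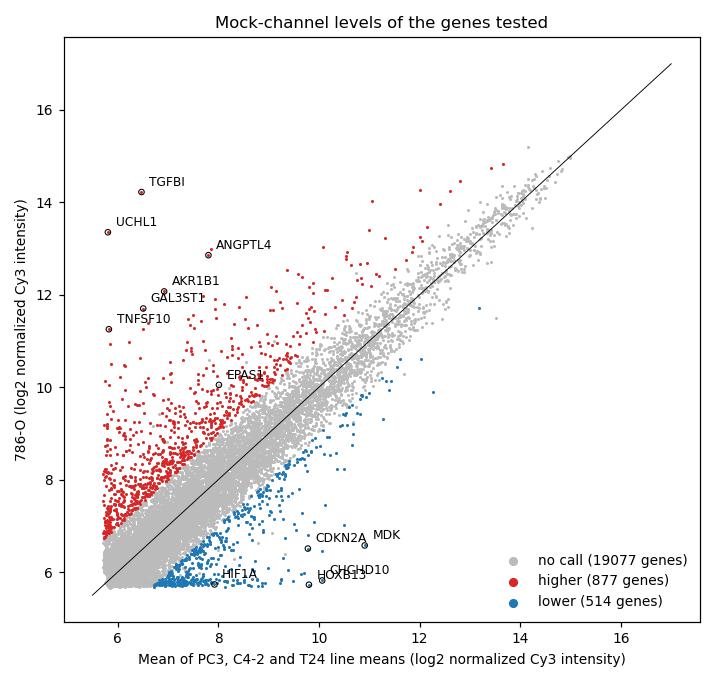
Level of each gene tested in 786-O (y axis) against the mean of the PC3, C4-2 and T24 line means (x axis), both as log2 normalized Cy3 intensity; red and blue points are the genes called higher (877) and lower (514), the line marks equal levels and circles mark genes named in the text. TGFBI and UCHL1 lie farthest above the line, and MDK, CHCHD10 and HOXB13 are among the genes farthest below it.

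The genes with the widest gap between 786-O and the nearest other line included secreted and matrix proteins, a death ligand and a ubiquitin hydrolase. UCHL1, a deubiquitinating enzyme abundant in neurons, stood at 13.30 and 13.41 on the 786-O arrays, 5.81, 5.92 and 5.83 in PC3, 5.81 in C4-2 and 5.70 and 5.82 in T24. All 6 other arrays lay at or close to background, so the gene was at least 179-fold higher in 786-O than the mean of the other lines (difference 7.55 ± 0.07 SE, adjusted p = 0.000698). TGFBI, a matrix protein induced by TGF-β, stood at 14.18 and 14.26 in 786-O, 6.54, 6.02 and 5.80 in PC3, 5.81 in C4-2 and 7.47 and 7.52 in T24. No other line came within 6 log2 units of 786-O, and the gene was at least 210.5-fold above their mean (difference 7.75 ± 0.31 SE, adjusted p = 0.00204). TNFSF10, which encodes the death ligand TRAIL, stood at 11.26 and 11.25 in 786-O and between 5.77 and 5.88 on the other 6 arrays. It was above background in no other line, and the ratio to the mean of the lines was at least 42.0-fold.

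The remaining genes of this group were 18.0-fold or more higher than the mean of the other lines. APOL1, an apolipoprotein that is also a kidney disease gene, stood at 11.38 and 11.40 in 786-O against 6.44 to 6.75 elsewhere, a 27.6-fold difference. IGFBP3, the main carrier of insulin-like growth factors in plasma, was 27.0-fold higher (11.24 and 11.26 against 6.12 to 6.87). F3, or tissue factor, which starts coagulation, stood at 10.48 and 10.47 in 786-O against 5.82 to 6.58, and RARRES2, the chemerin precursor, at 10.10 and 10.15 with no other array above background. These genes were picked for their gap to the nearest other line, so arrays that do not overlap follow from the choice. PRKCDBP (now CAVIN3), a caveolar coat protein, was at least 18.0-fold higher in 786-O. The probe named for UGT1A6, a glucuronidation enzyme, showed a difference of 4.64, but genes of the UGT1A locus share their last exons, so the member that was measured is uncertain. The matrix protein SPARC varied more than the others in PC3 (5.87, 6.34 and 7.33) and stood at 10.41 and 10.52 in 786-O (difference 4.33 ± 0.61 SE, adjusted p = 0.0164). Without PC3 replicate 2 its adjusted p was 0.0590.

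**Figure D2:**
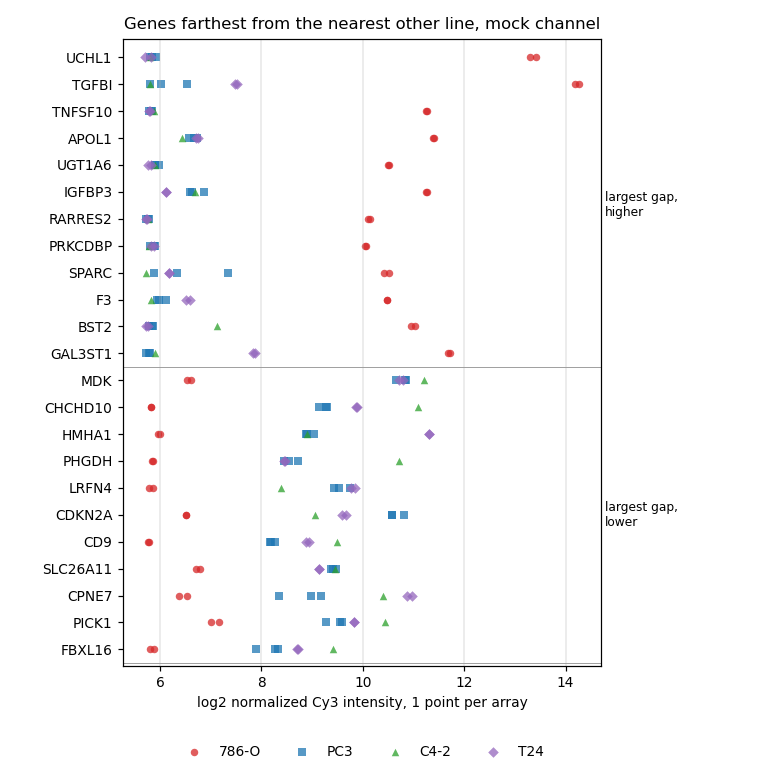
Level on each array (log2 normalized Cy3 intensity, 1 point per array, colour and shape by line) of the 12 genes with the widest gap above and 11 of the 12 with the widest gap below the nearest other line. The red 786-O points stand to the right of all others in the upper block and to the left of all others in the lower block, where several lie near the background level of about 6.

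Genes lower in 786-O than in each other line included a growth factor, a serine synthesis enzyme, a tetraspanin and a cell cycle inhibitor. MDK, the heparin-binding growth factor midkine, stood at 6.62 and 6.54 in 786-O, 10.83, 10.86 and 10.65 in PC3, 11.20 in C4-2 and 10.79 and 10.71 in T24. The other lines lay together more than 4 log2 units above 786-O (difference -4.33 ± 0.10 SE, adjusted p = 0.000964). CDKN2A, which encodes the cyclin-dependent kinase inhibitor p16 and ARF, stood at 6.51 on both 786-O arrays, 10.57, 10.82 and 10.58 in PC3, 9.06 in C4-2 and 9.58 and 9.67 in T24. It was 9.66-fold higher in the other lines, and its second probe showed a difference of -2.06. CDKN2B, the neighbouring inhibitor gene, was at background in 786-O (mean 5.80) but also low in PC3 (6.11), C4-2 (5.83) and T24 (5.78), and was not called.

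PHGDH, the first enzyme of serine synthesis, was above background on neither 786-O array (5.84 and 5.86) and stood at 8.45 to 8.71 in PC3, 10.71 in C4-2 and 8.47 and 8.45 in T24. The other lines were at least 10.4-fold higher on average. CHCHD10, a mitochondrial intermembrane protein, was likewise not above background in 786-O and at least 18.7-fold higher elsewhere, and CD9, a tetraspanin of the cell surface, at least 8.30-fold. LRFN4 and FBXL16 were also at background on both 786-O arrays, with ratios of at least 10.5-fold and 7.43-fold. For LRFN4 this holds for its brightest probe. A second LRFN4 probe was above background on 7 arrays and showed a smaller difference of -2.2. HMHA1 (now ARHGAP45), a GTPase-activating protein, stood at 5.96 and 5.99 in 786-O against 8.88 to 11.30 elsewhere. SLC26A11, CPNE7 and PICK1 differed by -2.59, -3.60 and -2.83. For SLC26A11 a second probe was above background on 1 array only.

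The VHL and HIF components were nearly all measured at similar levels in the 4 lines, apart from the HIF α subunits and 1 hydroxylase. Of 14 genes in this list, all tested, EGLN3 was called higher (7.14%, against 4.28% of all genes) and HIF1A lower (7.14%, against 2.51%). The median difference was -0.14 against -0.04 over all genes. VHL transcript stood at 10.84 and 10.77 in 786-O, 10.89, 11.09 and 10.55 in PC3, 10.95 in C4-2 and 11.27 and 11.15 in T24. The 786-O values lay inside the PC3 range (difference -0.19 ± 0.23 SE, adjusted p = 0.552). An array of this kind reads the amount of transcript and not its sequence, so a mutated transcript is measured like an intact one. ARNT, the shared partner of the α subunits, differed by -0.15 with an adjusted p of 0.240.

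HIF1A stood at 5.74 and 5.73 in 786-O, 8.39, 8.52 and 8.74 in PC3, 7.27 in C4-2 and 7.94 and 7.97 in T24. Its probe was above background on neither 786-O array, and the other lines were at least 4.37-fold higher on average (difference -2.19 ± 0.15 SE, adjusted p = 0.00466). A second, dimmer HIF1A probe was above background on 6 arrays and showed a difference of -0.45. EPAS1 stood at 10.07 and 10.03 in 786-O, 7.34, 6.93 and 8.29 in PC3, 6.84 in C4-2 and 9.70 and 9.65 in T24. 786-O had the highest values, but the spread of PC3 was wide and EPAS1 was not called (difference 2.04 ± 0.57 SE, adjusted p = 0.0688). The gap to T24 was 0.38 (adjusted p = 0.756), while the gaps to PC3 and C4-2 were 2.53 and 3.21 (adjusted p = 0.0420 and 0.0361). Without PC3 replicate 3 EPAS1 was called, with a difference of 2.17 and an adjusted p of 0.00989. EGLN3, the prolyl hydroxylase that marks HIF α subunits and is itself induced by HIF, stood at 7.09 and 7.11 in 786-O and between 5.70 and 5.98 on the other arrays. It was at least 2.36-fold higher than their mean (adjusted p = 0.00488). With cyclic loess scaling the EGLN3 difference was 0.95, under the size threshold.

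**Figure D3:**
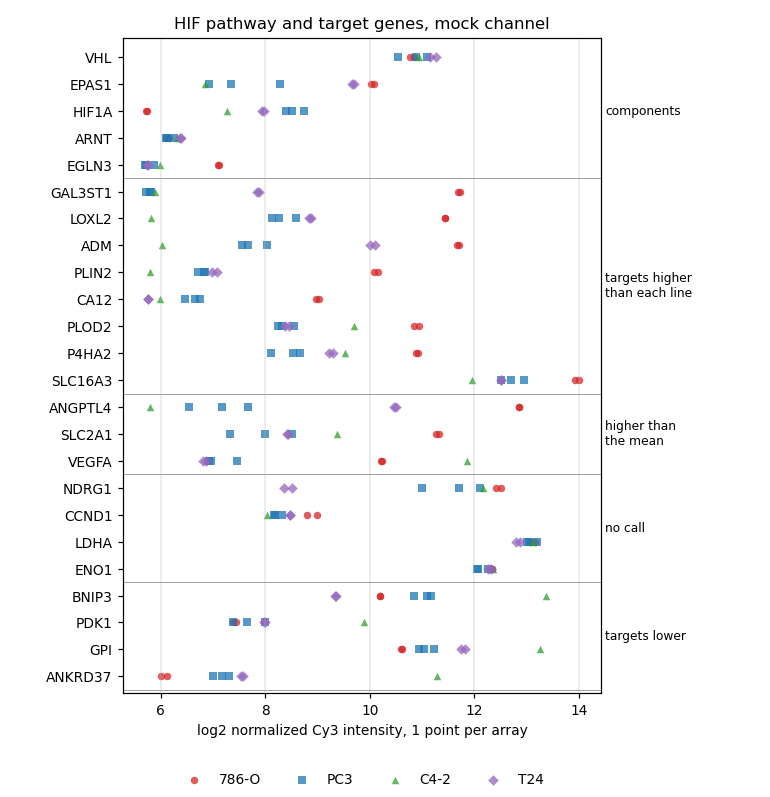
Level on each array (log2 normalized Cy3 intensity, 1 point per array, colour and shape by line) of HIF pathway components and HIF target genes, in blocks by their call. In 786-O HIF1A lies at background and EPAS1 is highest, the targets of the second block stand above all other lines, and ANKRD37 stands below them.

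Among 50 genes known as HIF targets, 45 were tested. Of these 12 were higher in 786-O (26.7%, against 4.28% of all genes), 4 were lower (8.89%, against 2.51%) and 29 were not called. The median difference of the 45 was 0.08, close to the all-gene median of -0.04, and it was -0.22 with 75th percentile scaling and -0.01 with cyclic loess. Without the C4-2 array it was 0.26, with 15 targets higher and 1 lower. Those higher than in each line were 9 of the 12, among them GAL3ST1, LOXL2, ADM, PLIN2, CA12, PLOD2, P4HA2 and SLC16A3. These span sulfolipid synthesis, collagen processing, vasoactive peptides, lipid storage and the transport of acid and lactate.

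GAL3ST1, the sulfotransferase that makes sulfatide, stood at 11.69 and 11.72 in 786-O, 5.72, 5.81 and 5.79 in PC3, 5.90 in C4-2 and 7.84 and 7.87 in T24. T24 was the nearest line and PC3 and C4-2 were at background, with a ratio to the mean of at least 36.1-fold. ADM, the vasodilator adrenomedullin, stood at 11.66 and 11.71 in 786-O, 7.67, 7.56 and 8.02 in PC3, 6.03 in C4-2 and 10.01 and 10.09 in T24. It was 13.4-fold above the mean of the lines (adjusted p = 0.00300). PLIN2, the coat protein of lipid droplets, stood at 10.15 and 10.08 in 786-O, 6.71, 6.82 and 6.86 in PC3, 5.80 in C4-2 and 6.99 and 7.07 in T24. No other array came within 3 log2 units of 786-O, and the ratio was at least 11.6-fold. A second PLIN2 probe differed by 1.82.

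CA12, a membrane carbonic anhydrase, stood at 8.98 and 9.02 in 786-O against 6.46 to 6.76 in PC3 and 5.75 to 5.98 in C4-2 and T24, and was at least 7.20-fold higher. Its better known relative CA9, a HIF-1 target, was above background on none of the 8 arrays. Among collagen-modifying enzymes the lysyl oxidase LOXL2 differed by 3.77, the lysyl hydroxylase PLOD2 by 2.06 and the prolyl hydroxylase P4HA2 by 1.83, and the 3 P4HA2 probes gave 1.66 to 1.90. LOX, of the same enzyme family as LOXL2, was not higher (-0.38, adjusted p = 0.0516), nor was P4HA1 (-0.73, adjusted p = 0.193). SLC16A3, the lactate exporter MCT4, averaged 13.96 in 786-O against 11.96 to 12.96 on the other arrays.

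The other 3 higher targets did not clear each line. ANGPTL4, an inhibitor of lipoprotein lipase, stood at 12.86 on both 786-O arrays, 6.53, 7.17 and 7.68 in PC3, 5.80 in C4-2 and 10.47 and 10.51 in T24 (at least 32.4-fold above the mean, adjusted p = 0.00748). All 786-O values were above all others, but the gap to T24 of 2.37 had an adjusted p of 0.0633. SLC2A1, the glucose transporter GLUT1, stood at 11.31 and 11.27 in 786-O, 7.33, 7.996 and 8.51 in PC3, 9.38 in C4-2 and 8.41 and 8.44 in T24 (difference 2.71 ± 0.49 SE, adjusted p = 0.0270). Without PC3 replicate 2 its adjusted p was 0.0807. VEGFA, the endothelial growth factor, stood at 10.21 and 10.24 in 786-O, 6.95, 6.93 and 7.46 in PC3, 11.86 in C4-2 and 6.86 and 6.80 in T24. C4-2 was thus higher than 786-O by 1.63, and the difference from the mean of the lines was 1.62 (adjusted p = 0.0197). That call was lost without PC3 replicate 1 (adjusted p = 0.0581) or PC3 replicate 2 (adjusted p = 0.0560).

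Glycolytic and mitophagy targets were not among the higher genes. LDHA, PGK1, ALDOA, ENO1 and TPI1 differed by 0.10, -0.65, -0.18, 0.08 and -0.11, none called. GPI, the glycolytic isomerase, stood at 10.61 and 10.60 in 786-O, 10.93, 11.04 and 11.22 in PC3, 13.25 in C4-2 and 11.74 and 11.82 in T24, so that 786-O was the lowest line (difference -1.43, adjusted p = 0.00702). ANKRD37, an ankyrin-repeat protein induced by HIF-1, was lower than in each line at 6.01 and 6.12 against 6.998 to 7.58 in PC3 and T24 and 11.28 in C4-2. BNIP3, a mitophagy receptor, and PDK1, the kinase that restrains pyruvate dehydrogenase, differed by -1.06 and -1.10, but T24 lay below 786-O for BNIP3 and the 786-O values of PDK1 lay inside the PC3 range. C4-2 was the highest line for all 4 lower genes, and without the C4-2 array 1 target was called lower in place of 4. Without PC3 replicate 2 the number was 2. NDRG1 (12.41 and 12.52 in 786-O) was above T24 by 4.04 but within 0.86 of PC3 and 0.29 of C4-2, and was not called against the mean (1.73, adjusted p = 0.0605). CCND1, a cyclin that HIF-2 induces in renal carcinoma cells, stood at 8.997 and 8.80 in 786-O and 8.03 to 8.48 elsewhere, a difference of 0.66 that was below the size threshold (adjusted p = 0.0132).

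The sequence just before the start sites of the higher HIF targets was read from the RefSeq promoter table (GRCh38.p14) and searched for the HIF core motif, spelled ACGTG or GCGTG, on both strands, in the 250 bases upstream. The motif was in 43.2% of all 35116 windows. By gene, 47.4% of all genes with a window held it in at least 1 window, as did 60.6% of all genes higher in 786-O and 59.2% of those lower. Of the 12 higher targets 9 had a window, and 6 of these 9 (66.7%) held the motif, close to the share of all higher genes. All 27 targets with a window and without a higher call held it. The 786-O genes with a single listed start site and a match are shown because they put the motif beside the values above, each 5′ to 3′ on the gene's strand, with every match in capitals (CACGT and CACGC are the same motif read on the other strand). PLIN2 held 4 overlapping or separate matches between 68 and 120 bases before the start, PLOD2 held 3, and ADM, ANGPTL4 and CA12 held 1 each. SLC16A3 had 5 listed windows, some with and some without a match, and is not shown. No match was found in the windows of SLC2A1, P4HA2 and GAL3ST1 that were listed, which says only that these letters were absent there.
CA12 (chr15:63381847-63382096, minus strand): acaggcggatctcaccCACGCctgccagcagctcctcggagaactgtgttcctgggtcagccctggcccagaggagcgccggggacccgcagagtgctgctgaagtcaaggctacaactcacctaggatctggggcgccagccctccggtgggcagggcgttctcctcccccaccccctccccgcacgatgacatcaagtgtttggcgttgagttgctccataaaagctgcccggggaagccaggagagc
ADM (chr11:10304823-10305072, plus strand): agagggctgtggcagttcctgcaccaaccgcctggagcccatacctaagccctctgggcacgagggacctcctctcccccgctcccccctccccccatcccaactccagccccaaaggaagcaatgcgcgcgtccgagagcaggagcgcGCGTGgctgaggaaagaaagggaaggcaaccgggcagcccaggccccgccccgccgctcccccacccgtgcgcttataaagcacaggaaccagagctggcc
ANGPTL4 (chr19:8363905-8364154, plus strand): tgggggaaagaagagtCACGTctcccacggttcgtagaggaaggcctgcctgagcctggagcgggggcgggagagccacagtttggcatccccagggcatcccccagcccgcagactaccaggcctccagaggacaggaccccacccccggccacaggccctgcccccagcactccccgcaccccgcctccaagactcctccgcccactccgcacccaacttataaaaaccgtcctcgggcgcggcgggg
PLOD2 (chr3:146161185-146161434, minus strand): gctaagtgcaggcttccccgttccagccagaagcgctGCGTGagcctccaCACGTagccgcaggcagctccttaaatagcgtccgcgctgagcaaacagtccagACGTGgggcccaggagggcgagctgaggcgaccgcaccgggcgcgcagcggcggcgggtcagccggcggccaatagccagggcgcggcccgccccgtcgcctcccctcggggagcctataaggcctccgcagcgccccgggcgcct
PLIN2 (chr9:19127493-19127742, minus strand): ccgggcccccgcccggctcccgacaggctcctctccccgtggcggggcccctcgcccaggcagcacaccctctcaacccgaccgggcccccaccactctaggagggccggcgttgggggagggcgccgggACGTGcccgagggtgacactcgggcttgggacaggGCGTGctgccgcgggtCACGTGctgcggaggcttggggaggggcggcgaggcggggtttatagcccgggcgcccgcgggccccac

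Lineage markers were checked against the label of 786-O. Of 18 renal lineage transcription factors, 13 were tested, 2 were higher (15.4%, against 4.28% of all genes) and none lower (against 2.51%). The median difference was 0.40. Over all 18, with no filter on background, it was 0.197, with 2 higher. PAX8, the transcription factor used to identify renal tumours, stood at 8.74 and 8.77 in 786-O, 5.96, 5.91 and 5.94 in PC3, 5.78 in C4-2 and 8.55 and 8.61 in T24. The gene thus marked 786-O and T24 alike (gap 0.17, adjusted p = 0.138) and stood apart from both prostate lines. PAX2, its relative, stood at 7.88 and 7.74 in 786-O and higher still in T24, at 9.02 and 9.14, with PC3 and C4-2 at background. LHX1, an early nephric factor, was highest in 786-O (9.96 and 9.89, against 5.88 to 7.20 in PC3, 5.81 in C4-2 and 6.81 to 6.87 in T24). Its difference of 3.48 had an adjusted p of 0.0225, which became 0.0503 without PC3 replicate 1, 0.0656 without PC3 replicate 2 and 0.0635 with cyclic loess. HNF4A and EMX2 were above background in no line throughout.

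CDH6, the kidney cadherin of proximal tubule and renal carcinoma, stood at 8.17 and 8.27 in 786-O and at background on the other 6 arrays, at least 5.13-fold higher. Of 31 proximal tubule genes 16 were tested, 3 were higher (18.8%, against 4.28% of all genes) and 1 lower (6.25%, against 2.51%). The median difference was 0.38. Over all 31, with no filter on background, it was 0.007, with 3 higher and 1 lower. The lower gene was MME, the membrane peptidase neprilysin (-1.15). It was not called with 75th percentile scaling (-0.80) or cyclic loess (-0.80), and its difference was 0.066 without the C4-2 array. PDZK1, a scaffold of brush border transporters, was higher than in each line (7.84 and 7.85 against 5.79 to 6.09). GGT1, a brush border peptidase, was higher than the mean only (1.08) and fell under the size threshold with 75th percentile scaling (0.92) and cyclic loess (0.98). The endocytic receptor CUBN, the transporters SLC22A6 and SLC5A2 and the gluconeogenic enzymes PCK1 and G6PC were above background in no line throughout. The receptor LRP2 was present but not higher (-0.63, adjusted p = 0.0396). Of 22 distal nephron and podocyte genes 11 were tested, and only SYNPO was called (9.09% higher, against 4.28% of all genes). SYNPO, an actin-binding protein of podocyte foot processes, stood at 10.18 and 10.24 in 786-O against 5.78 to 6.78 elsewhere. Its other 2 probes differed by 0.46 and 1.37.

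**Figure D4:**
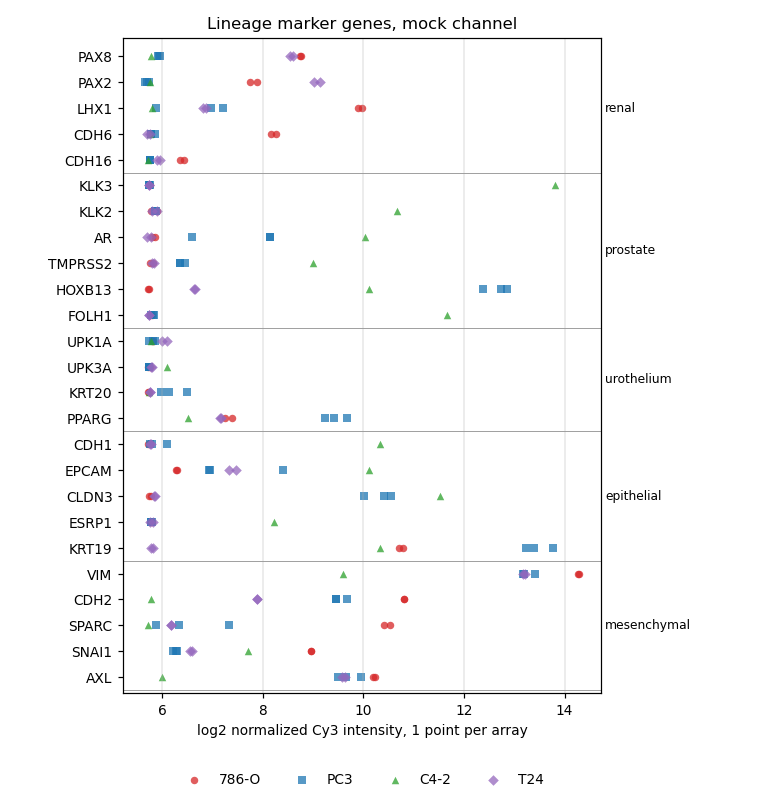
Level on each array (log2 normalized Cy3 intensity, 1 point per array, colour and shape by line) of renal, prostate, urothelial, epithelial and mesenchymal marker genes. PAX8 and PAX2 are shared with T24, CDH6 and LHX1 are highest in 786-O, and the prostate genes are high in C4-2 and HOXB13 also in PC3. The mesenchymal genes drawn were all taken from the 8 called higher of 25 tested, of which 16 were not called and 1 was lower. Among those drawn, VIM, CDH2, SPARC and SNAI1 are highest in 786-O.

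Prostate genes were at or near background in 786-O. Of 17 tested, 7 were lower (41.2%, against 2.51% of all genes) and 1 was higher (5.88%, against 4.28%). The median difference was -1.18. KLK3, which encodes prostate-specific antigen, stood at 5.74 and 5.76 in 786-O and at 13.81 in C4-2, while PC3 and T24 were also at background, so its difference of -2.68 rests on the C4-2 array. FOLH1, KLK2 and TMPRSS2 were likewise highest in C4-2, and without the C4-2 array the number of lower prostate genes was 1 and the median 0.00. HOXB13, a prostate homeobox factor, kept its call: 5.71 and 5.74 in 786-O against 12.37 to 12.86 in PC3, 10.11 in C4-2 and 6.66 and 6.63 in T24. The higher gene was PMEPA1, a target of both androgen and TGF-β signalling, at 10.37 and 10.47 in 786-O against 6.66 to 8.33. The uroplakins that were tested, UPK1A and UPK3A, were above background on neither 786-O array, and in T24 only UPK1A was. Of 7 urothelial genes tested, FOXA1 alone was called (14.3% lower, against 2.51% of all genes). It stood at 5.84 and 5.85 in 786-O against 8.19 to 9.08 in the prostate lines. FOXA1 lost its call without PC3 replicate 2 (adjusted p = 0.0653) and with cyclic loess (adjusted p = 0.0619).

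Of 28 epithelial genes, 6 were lower in 786-O (21.4%, against 2.51% of all genes) and none was higher (against 4.28%). The other 22 were not called, and the median difference of the 28 was -0.76. Without the C4-2 array 2 were lower and 2 higher, and the median was -0.09, so most of the lower calls rest on that array. CDH1, or E-cadherin, was at background in 786-O (5.71 and 5.75), in T24 and in 2 of 3 PC3 RNAs, and stood at 10.33 in C4-2. CLDN3, a tight junction claudin, was also at background in 786-O and T24 but stood at 10.01 to 10.54 in PC3 and 11.52 in C4-2. KRT19 and CLDN4, by contrast, stood at 10.75 and 10.78 on average in 786-O and only T24 lay near background.

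Of 25 mesenchymal genes tested, 8 were higher (32.0%, against 4.28% of all genes) and 1 was lower (4%, against 2.51%). The median was 0.44. Of the 8 higher genes 6 were higher than in each line. That number was 3 with 75th percentile scaling or cyclic loess. It was 4 without PC3 replicate 1 or 2, and 7 without the C4-2 array. VIM, or vimentin, stood at 14.26 and 14.28 in 786-O, 13.19, 13.17 and 13.42 in PC3, 9.60 in C4-2 and 13.17 and 13.22 in T24. CDH2, or N-cadherin, stood at 10.81 and 10.80 in 786-O, 9.68, 9.45 and 9.45 in PC3, 5.77 in C4-2 and 7.89 and 7.88 in T24. Both were highest in 786-O with no overlap, and C4-2 was the lowest line. SNAI1, a repressor of E-cadherin, stood at 8.95 on both 786-O arrays against 6.22 to 7.70, and MMP2 and COL6A3 differed by 1.36 each. ZEB1 (0.73, adjusted p = 0.0158), TWIST1 and TWIST2 were not higher, and THY1, which stood at 10.11 and 10.14 in T24, was lower.

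HOX genes keep a positional code from development, and 31 of 39 were tested. In 786-O 7 were higher (22.6%, against 4.28% of all genes), 4 of them above each line (HOXA3, HOXA9, HOXB9 and HOXD10). HOXB13 was lower (3.23%, against 2.51%). HOXB9 stood at 9.47 and 9.43 in 786-O, 5.99, 5.90 and 5.93 in PC3, 7.23 in C4-2 and 7.48 and 7.50 in T24 (difference 2.56 ± 0.06 SE). HOXA9 stood at 9.88 and 9.87 in 786-O against 6.03 to 8.83, and its 4 probes differed by 0.88 to 2.36. HOXD10 was at background in PC3 and C4-2 and stood at 7.91 and 7.93 in 786-O and 6.63 in T24. Without PC3 replicate 1, 2 HOX genes were higher than in each line.

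Several secreted immune mediators were higher in 786-O. Of 25 cytokines and chemokines tested, 9 were higher (36.0%, against 4.28% of all genes) and none lower (against 2.51%). The median difference was 0.70. That median was 0.00 without the C4-2 array, in which 4 of the 27 listed genes were above background, and 8 were then higher and 1 lower. CXCL5, a neutrophil chemokine, stood at 9.63 and 9.60 in 786-O, 6.97, 6.42 and 6.83 in PC3, 6.12 in C4-2 and 6.41 and 6.43 in T24. CSF2, or GM-CSF, stood at 8.69 and 8.71 against 5.77 to 6.17, and IL32 at 9.27 and 9.31 against 5.89 to 6.46. These 3 genes, with TNFSF10, IL15, IL11 and CCL5, were higher than in each line. IL6 was shared with T24 (9.56 and 9.54 in 786-O, 9.66 and 9.82 in T24) and CXCL1 was higher in T24 (13.19 and 13.71) than in 786-O (10.95 and 10.93).

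Antigen presentation genes had a median difference of 0.82. Of 19 tested members 9 were higher (47.4%, against 4.28% of all genes) and none lower (against 2.51%). HLA-C stood at 12.93 on both 786-O arrays, 10.05, 10.13 and 10.24 in PC3, 11.15 in C4-2 and 10.33 and 10.39 in T24. HLA-B stood at 11.70 on both against 9.39 to 10.18. HLA class I genes are near-identical over much of their length and differ between individuals, so probes may read each other's transcripts or miss an allele. B2M, the invariant light chain, does not carry that limit and stood at 12.66 and 12.67 in 786-O against 10.29 to 11.19. The immunoproteasome subunit PSMB9 (9.38 on both arrays, against 6.42 to 7.91) and the peptide trimmer ERAP2 (9.27 and 9.22, against 5.89 to 7.001) were also higher than in each line. The class II genes CIITA, HLA-DRA and CD74 were above background in no line throughout. With 75th percentile scaling the median was 0.57 and 6 genes were higher.

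Interferon-stimulated genes were higher in part. Of 33 tested, 7 were higher (21.2%, against 4.28% of all genes) and 1 lower (3.03%, against 2.51%), with a median of 0.37. BST2, or tetherin, stood at 11.02 and 10.95 in 786-O, 7.12 in C4-2 and at background in PC3 and T24, at least 26.3-fold above their mean. IFI27 stood at 8.88 on both 786-O arrays against 6.01 to 6.35. IFI44, IFIT3, OASL and SAMD9L were the other genes higher than in each line, and IFI44 lost its call without PC3 replicate 1 (adjusted p = 0.0671), without PC3 replicate 2 (adjusted p = 0.0616) and with cyclic loess (adjusted p = 0.0673). The number higher than in each line was 3 in place of 6 without PC3 replicate 1 or 2. ISG15, MX1 and STAT2 were not called. IRF7, a transcription factor that amplifies interferon production, went the other way: it stood at 6.17 and 6.30 in 786-O against 8.93 to 8.98 in PC3, 8.22 in C4-2 and 9.04 and 8.98 in T24 (difference -2.49 ± 0.05 SE, adjusted p = 0.000827).

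Lipid storage, the trait behind the clear cells of the tumour, was represented by 22 tested genes, with a median of -0.08. Of these 4 were higher (18.2%, against 4.28% of all genes) and 2 lower (9.09%, against 2.51%). Beside PLIN2, the higher genes were G0S2, an inhibitor of triglyceride lipase, and the fatty acid binding proteins FABP5 and FABP6. FABP5 differed by 1.42, but only by 0.80 with 75th percentile scaling, under the size threshold, and by -0.25 without the C4-2 array. G0S2 stood at 10.93 and 11.03 in 786-O, 10.46, 9.34 and 10.37 in PC3, 5.72 in C4-2 and 6.33 and 6.38 in T24, so that PC3 lay close to 786-O. FABP6 stood at 8.23 and 8.22 in 786-O against 5.80 to 6.06. The lower genes were the fatty acid synthesis enzymes FASN (-1.07) and ACACA (-1.25), and neither was called without the C4-2 array.

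NRF2 targets, the antioxidant response genes, were mostly level with the other lines. Of 26 tested, 3 were higher, a larger share than the 4.28% of all genes, and 1 was lower (3.85%, against 2.51%). The median was 0.00. The classic target NQO1 differed by -0.19 and GCLM by 0.12, without a call. The aldo-keto reductase AKR1B1, or aldose reductase of the polyol pathway, stood at 12.10 and 12.05 in 786-O, 5.92, 5.99 and 5.97 in PC3, 5.74 in C4-2 and 9.05 and 9.10 in T24, at least 34.1-fold above the mean. Its relative AKR1B10 stood at 8.20 and 8.14 against 5.73 to 6.05. The other higher gene was GSTP1, which differed by 1.14, but by -1.25 without the C4-2 array. PIR, the iron-binding nuclear protein pirin that the inhibitor bisamide targets, was the lower gene: 8.28 and 8.35 in 786-O against 9.75 to 9.96 in PC3, 10.27 in C4-2 and 9.05 and 8.93 in T24 (difference -1.40 ± 0.11 SE, adjusted p = 0.00527).

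Among 18 genes known as tumour suppressors in renal carcinoma, CDKN2A and FLCN were lower (11.1%, against 2.51% of all genes). None was higher (against 4.28%), and the median was -0.17. FLCN, the folliculin gene, was called on its brightest probe alone (-1.67), whereas 2 other probes above background on 7 or 8 arrays differed by -0.14 and 0.03. Without the C4-2 array its difference was -0.72, under the size threshold. PBRM1, BAP1 and SETD2, which lie on the short arm of chromosome 3 with VHL, differed by -0.73 (adjusted p = 0.0297), -0.16 and -0.16, without a call.

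The line differences were read a second time in the Cy5 channels, which held other RNA of the same lines, from 8 cultures that each had a treatment. Of the 877 genes higher and the 514 lower in the mock channel, all had the same sign in Cy5, and 799 (91.1%) and 481 (93.6%) were called there too. Of those that cleared each line, 284 of 341 (83.3%) and 75 of 78 (96.2%) did so again. The repeated share of all calls was 92.0% here. When the Cy3 calls were remade under other settings, the Cy5 calls stayed those of the main setting. The share was then 41.0% with a normexp offset of 0 and 41.1% with plain subtraction of the background. It was 39.5% with the processed signal of the scanner. Each is over a larger number of Cy3 calls, so a lower repeat cannot be told apart from the mismatch of settings. EPAS1 and NDRG1, not called in the mock channel, were called in Cy5 (2.55 and 2.10, adjusted p = 0.00125 and 0.0111), and PAX2 as well (1.36). HIF1A differed by -2.87 and GAL3ST1 by 5.12 in Cy5, against -2.19 and 5.20 in Cy3. Both channels were scanned on the same spots, so a probe that reads another transcript does so in both.

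**Figure D5:**
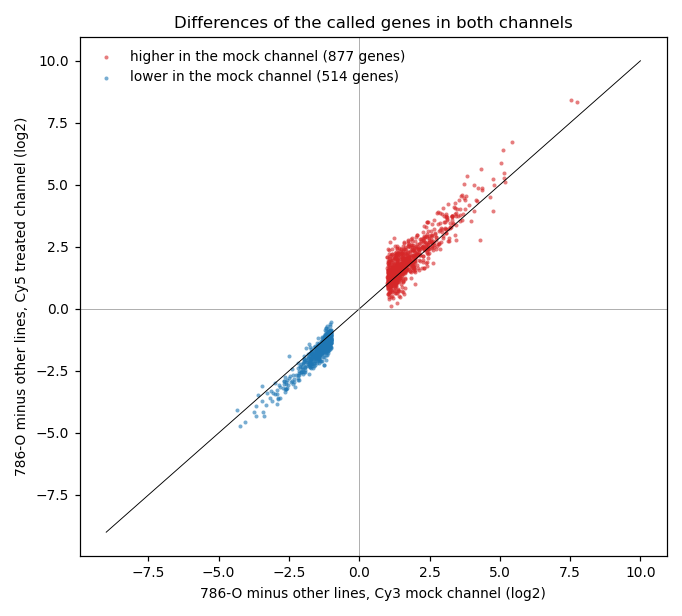
Difference of 786-O from the mean of the other line means (log2) in the Cy5 treated channel (y axis) against the Cy3 mock channel (x axis) for the 877 genes called higher and the 514 called lower in the mock channel; the diagonal marks equal differences. All points lie in the 2 quadrants of equal sign.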

How the data were processed

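The arrays were Agilent human 60K oligo microarrays, hybridised with mock RNA in Cy3 and RNA of treated cells in Cy5, per the labels. The deposited files hold scanner intensity values per spot, made by the authors with Agilent Feature Extraction 11.5.1.1, with no normalization between arrays; the probe coordinates are those of hg19. All arrays lay on 1 slide and were scanned on 1 day. From the deposited intensities, the Cy3 mean signal was corrected with the median local background (normexp, offset 50), outlier and control spots were left out, the 8 Cy3 channels were quantile normalized and log2 values were averaged over the spots of a probe. Such single-channel values carry spot effects that a two-colour ratio would remove, and the offset draws the differences of dim genes towards 0. The brightest probe stood for a gene. Genes well above background on all arrays of at least 1 line were tested (20468 of 43317, 1 of them without a value in a line), and 14786 of these matched RefSeq by accession. A gene above background in 786-O alone passed this filter, whereas a gene dim in every line did not. With no filter the median was 0.26 for the mesenchymal genes, 0.43 for the cytokines and chemokines and 0.29 for the interferon-stimulated genes. It was 0.63 for the antigen presentation genes and -1.03 for the prostate genes. Arrays of the same mock RNA were averaged, and limma 3.58.1 (R 4.3.3) was fitted on the log2 values of 6 mock RNAs with 2 residual and 1.76 prior degrees of freedom. p-values were adjusted over all genes tested, and calls needed an adjusted p under 0.05 and a difference of 1 or more. The standard error therefore comes from the PC3 RNAs. Where a gene was above background on no array of a line, the ratio is given as "at least" the bound set by the dimmest signal above background on those arrays. The number of arrays limits the precision.

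The genes named were the 12 per direction with the widest gap to the nearest other line, a fixed set of VHL, HIF and lineage genes, and up to 4 called members of each of 16 lists; other list members were named after their values were seen. The members and lists were chosen with earlier results of these data known. Alternatives to the background correction, scaling, filter, probe rule, threshold, replicates and channel were run. The authors' table of processed values was not used here, nor were comparisons of treated with mock cells. A few genes that these rules name are not reported here.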

Additional observations from a re-analysis of the deposited data

How the results depend on the processing

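The numbers of genes are given in the order higher than the mean, lower than the mean, higher than each line and lower than each line; they were 877, 514, 341 and 78 in the report. They were 2325, 2440, 806 and 563 with a normexp offset of 0, 2328, 2437, 811 and 560 with plain subtraction, and 1386, 1011, 562 and 168 when no background was removed. From the processed signal of the scanner they were 2618, 2089, 776 and 520. With 75th percentile scaling they were 477, 840, 178 and 173, with cyclic loess 636, 313, 233 and 48, over genes above background on all arrays 482, 300, 146 and 55, with a threshold of 1.5 410, 178, 174 and 35, and in the Cy5 channels 1291, 946, 534 and 168. The share of called genes that were higher moved from 63.0% to 48.8% with offset 0, 48.9% with plain subtraction and 36.2% with 75th percentile scaling. Leaving out each array in turn gave 779 to 900, 420 to 545, 284 to 528 and 56 to 154, the last 2 highest without the C4-2 array. The share of calls repeated in Cy5 was 41.0% with offset 0, 41.1% with plain subtraction, 74.7% without correction, 73.8% with 75th percentile scaling, 93.6% with cyclic loess, 39.5% with the processed signal, 88.5% over genes above background on all arrays, 89.4% against the mean of all other arrays, 98.8% at a threshold of 1.5, and 82.1% to 92.6% with an array left out. The cause of these shifts was not tested.

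Of the values of named genes under these settings, 1524 kept direction and side of the threshold, 22 gained a call, 40 lost one and 6 changed sign. With an array left out KLK3 was -2.69 to 0.007, MME -1.18 to 0.066, FOLH1 -1.98 to 0.003, FABP5 -0.25 to 1.45 and GSTP1 -1.25 to 1.15, and the sign changed only without the C4-2 array. GSTP1 was -0.081 against the mean of all other arrays. No paired analysis was possible because replicate numbers were given in accession order and tie no array of one line to an array of another. No signal-independent measure of depth was used: genes near background have only bounds.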

Other observations

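Called genes were spread over the chromosomes. By chromosome, 2.47% (chromosome 13) to 6.92% (chromosome 7) of the genes tested were higher in 786-O and 1.09% (chromosome 8) to 4.48% (chromosome 5) were lower, and the median difference lay between -0.15 (chromosome 14) and 0.04 (chromosome 9). On chromosome 3, genes below 90 Mb of hg19, which hold the short arm with VHL, had a median difference of -0.11 over 512 genes in Cy3 and -0.14 in Cy5, against 0.02 and -0.02 over the 569 genes above 90 Mb. With 75th percentile scaling the medians were -0.06 and 0.07. These are descriptions over genes, which are not replicates.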
